A study of Mus musculus with 6 samples.

Results

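Troponin is the calcium switch of striated muscle, and the mouse genome encodes it in 8 genes: Tnnt1, Tnnt2 and Tnnt3 for troponin T, Tnni1, Tnni2 and Tnni3 for troponin I, and Tnnc1 and Tnnc2 for troponin C. These 8 genes were taken by name, with earlier results of these data known. All 8 were listed among the 11835 genes of the deposited table, with 32 of its 23949 matched transcripts. When calcium binds troponin C, troponin I releases its hold on actin and troponin T, which anchors the complex to tropomyosin, moves the thin filament into its active state. Slow skeletal, fast skeletal and cardiac fibers use separate genes: Tnnt1 and Tnni1 are the slow forms, Tnnt3, Tnni2 and Tnnc2 the fast forms, Tnnt2 and Tnni3 the cardiac forms, and Tnnc1 serves slow and cardiac fibers alike. Developing skeletal muscle and muscle cell lines also express Tnnt2 before the adult skeletal forms take over.

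The samples were 6 libraries of C2C12, a mouse myoblast line that withdraws from the cell cycle and fuses into myotubes in low serum. There were 3 siNC libraries, from cells transfected with NC siRNA, a negative control, and 3 siCNN3 libraries, from cells transfected with CNN3 siRNA, against the actin-binding protein calponin 3. Per the labels, both groups were induced to differentiate in medium with 2% horse serum and were described as mouse myotube. One cell line was used, and the labels do not say whether the libraries of a group came from separate transfections, so every p-value measures the spread between these libraries, which may be technical. The comparison asks how the troponin genes differ between siNC and siCNN3 cells.

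Values are FPKM (fragment counts scaled by transcript length and by the total of the library), summed over the transcripts of a gene, and fold changes are log2 differences of FPKM + 1, siCNN3 minus siNC. This scale understates the change of low genes. A gene was called when its limma adjusted p was below 0.05 over all 11593 genes that averaged 0.5 FPKM or more, and all 8 troponin genes passed that minimum. The targeted gene, Cnn3, was at 62.8, 61.4 and 62.8 FPKM in siNC, against 19.04, 39.2 and 25.6 FPKM with siCNN3, or 44.8% of the siNC mean (log2 fold change -1.19, limma adjusted p = 0.0669), so every siCNN3 library was lower although the gene itself was not called. The siCNN3 libraries differed from siNC in much besides muscle genes: 15 of 20 interferon response genes were called higher, against 1.73% of all tested genes, with Cxcl10, Ifit3b and Ifit3 having the largest changes, and their summed level was 57.1 to 603.5 FPKM in siNC, where siNC replicate 2 was the highest, and 3175 to 5590 FPKM in siCNN3. The part of that response in the troponin values was not tested.

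The siRNAs define the groups, so their antisense strands are shown with bases 2 to 8, the seed, in capitals. The study lists 3 CNN3 siRNAs and does not name the one used for sequencing.
NC siRNA: aCGUGACAcguucggagaatt
CNN3 siRNA1: uUGGUGCCaaugccuaggctt
CNN3 siRNA2: uUAACGCCaaugucaauggt
CNN3 siRNA3: uUCCGACCcauuggugccctt
A site complementary to the seed occurred in 2 of the 32 troponin transcripts, both of Tnnt1 and both for CNN3 siRNA1, and 0 of these sites lay in a 3′ UTR. The seeds of the other CNN3 siRNAs and of the NC siRNA had 0 sites, and the longest uninterrupted complement of any of the 4 strands in these transcripts was 7 or 8 bases. A match of letters does not show silencing.

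Slow Tnnt1 and fast Tnnt3, Tnni2 and Tnnc2 fell to between 12.0% and 28.3% of their siNC means and were called lower, 4 of the 8 members against 0.336% of all tested genes (39 of 11593). Of the 4, Tnnc2 passed the minimum for testing only through its siNC level. No troponin gene was called higher, compared with 1.73% of all genes (200 of 11593). After quantile normalization the same table gave 93 genes called lower and 199 called higher. The 4 troponin calls were kept there. The count of troponin calls was 2 with the highest transcript of each gene only, and 0 when either siCNN3 replicate 1, siCNN3 replicate 2 or the third siNC library was left out. Of all genes, 0.19% were called lower with the highest transcript only and 0.0345% to 0.0604% without 1 of these libraries. At an unadjusted p under 0.05, 6 of 8 members were lower and 0 were higher, against 6.14% and 9.94% of all tested genes. In 6 of 8 members every siCNN3 value lay below every siNC value, which was so for 9.35% of all tested genes. The median log2 fold change of the members was -1.49, against 0.03 over all genes.

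**Figure D1:**
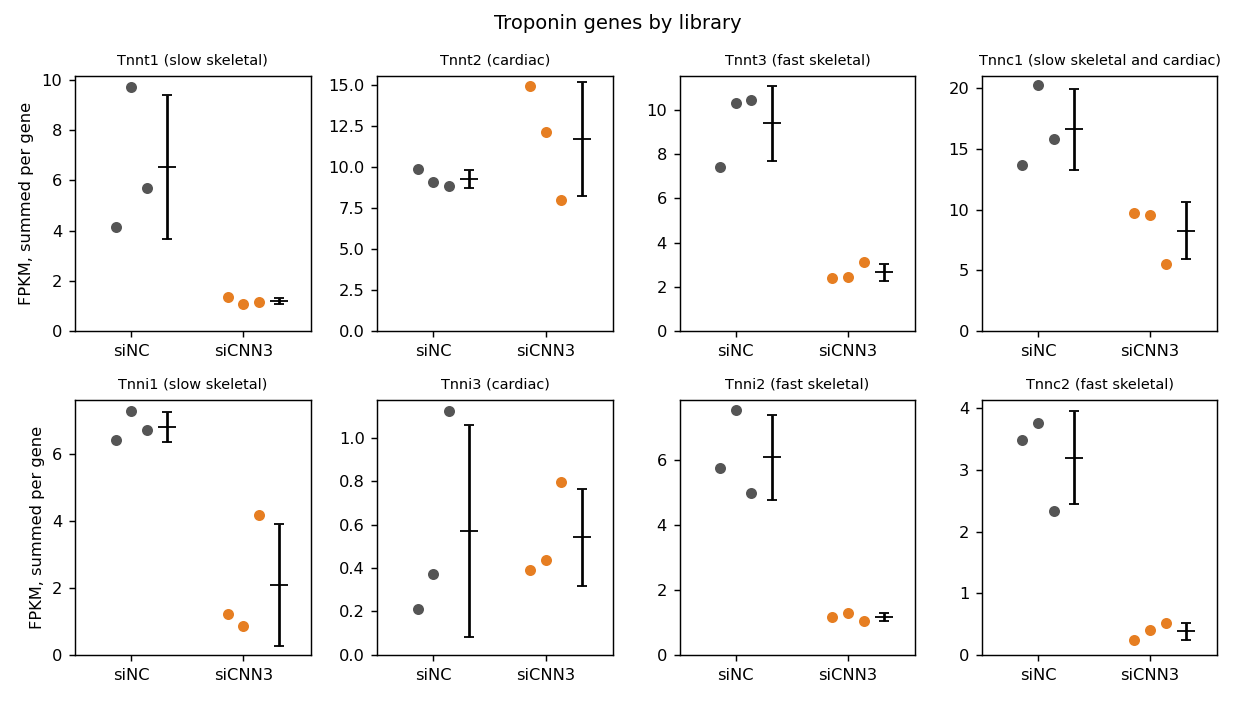
FPKM of the 8 troponin genes in each library (points), with the group mean and SD (bar, n = 3) beside them, each panel on its own axis from 0. The siCNN3 points lie below all siNC points in every panel except the cardiac genes Tnnt2 and Tnni3.

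Troponin T carries the complex on tropomyosin. Fast Tnnt3 (chr7:142498836-142516009, plus strand, GRCm38) was at 7.43, 10.3 and 10.4 FPKM in siNC, against 2.42, 2.43 and 3.11 FPKM with siCNN3. The 2 groups were far apart and each was tight. Its mean was 9.39 ± 1.70 (SD, n = 3) in siNC and 2.66 ± 0.39 in siCNN3, 28.3% of siNC, with a log2 fold change of -1.499 (95% interval -1.93 to -1.07, limma adjusted p = 0.0144). Slow Tnnt1 (chr7:4504570-4516382, minus strand) was at 4.15, 9.72 and 5.71 FPKM in siNC, against 1.35, 1.08 and 1.17 FPKM with siCNN3. The siNC libraries differed among themselves by more than the siCNN3 libraries did, siNC replicate 2 being the highest, and no siCNN3 value came near the lowest of them. The mean fell from 6.52 ± 2.88 to 1.20 ± 0.14 FPKM, 18.4% of siNC (log2 fold change -1.71, 95% interval -2.36 to -1.06, limma adjusted p = 0.0332). This rests on the sum over transcripts: with Tnnt1-206, the transcript with the highest mean, standing for the gene, the log2 fold change was -0.66 and not called (limma adjusted p = 0.614), and with Tnnt3-211 standing for Tnnt3 it was -1.39 and not called (0.229). Only 14 genes outside the family had a lower fold change than Tnnt1.

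Cardiac Tnnt2 (chr1:135836354-135852260, plus strand) was the one troponin T gene that was not called. It was at 9.87, 9.10 and 8.85 FPKM in siNC, against 14.9, 12.1 and 8.01 FPKM with siCNN3, so that 2 siCNN3 libraries were above all siNC libraries and siCNN3 replicate 3 was below them. The groups overlapped, with means of 9.27 ± 0.53 and 11.7 ± 3.49 FPKM and a log2 fold change of 0.27 (95% interval -0.25 to 0.79, limma adjusted p = 0.593). This holds for the FPKM summed over its transcripts, and the direction turned, to -1.06 (limma adjusted p = 0.516), with the transcript of highest mean standing for the gene. Within each library the log2 ratio of Tnnt3 to Tnnt2 was -0.37, 0.16 and 0.21 in siNC and -2.22, -1.94 and -1.13 in siCNN3. The groups did not overlap, and the difference of -1.77 gave p = 0.1 in a two-sided exact permutation test, the smallest that 3 against 3 libraries allow (adjusted over the 4 ratios tested, 0.4). With the transcript of highest mean standing for each gene, the difference was -0.33 (adjusted exact permutation p = 0.8). The ratio of fast Tnnt3 to slow Tnnt1 differed by 0.21 with overlapping groups (exact permutation p = 0.6, adjusted 0.8).

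Troponin I is the inhibitory subunit. Fast Tnni2 (chr7:142441808-142444410, plus strand) was at 5.74, 7.53 and 4.97 FPKM in siNC, against 1.18, 1.30 and 1.03 FPKM with siCNN3. No value of one group came near the other. Its mean fell from 6.08 ± 1.31 to 1.17 ± 0.14 FPKM, 19.2% of siNC, and it had the lowest adjusted p of the family (log2 fold change -1.69, 95% interval -2.12 to -1.27, limma adjusted p = 0.0099). Slow Tnni1 (chr1:135779434-135810989, plus strand) was at 6.41, 7.29 and 6.73 FPKM in siNC, against 1.23, 0.878 and 4.18 FPKM with siCNN3. All siCNN3 values were below siNC, but siCNN3 replicate 3 kept a level several times that of the other two. The mean was 6.81 ± 0.44 against 2.10 ± 1.82 FPKM, 30.8% of siNC, and the gene was not called (log2 fold change -1.49, 95% interval -2.36 to -0.61, limma adjusted p = 0.107). Without siCNN3 replicate 3 it was called, with a log2 fold change of -1.93 and a limma adjusted p of 0.00347. The log2 ratio of Tnni2 to Tnni1 differed by -0.21 between groups that overlapped (exact permutation p = 0.9, adjusted 0.9), and it was 0.29 without siCNN3 replicate 3.

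Cardiac Tnni3 (chr7:4518305-4524229, minus strand) was barely above the minimum for testing. It was at 0.213, 0.374 and 1.12 FPKM in siNC, against 0.391, 0.435 and 0.798 FPKM with siCNN3, and the groups overlapped throughout. Its log2 fold change was 0.01 (95% interval -0.59 to 0.60, limma adjusted p = 0.994) and turned to -0.08 under quantile normalization, so these libraries give it no direction. Of the 12 cardiac muscle markers only Gata4 and Nkx2-5 were listed and 0 were called, where 0.336% of all genes were called lower and 1.73% higher. Myh6, Myl7, Nppa and the rest of that list were not analysed here, and the word cardiac is used here for the gene, not for the cells.

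Troponin C binds the calcium. Fast Tnnc2 (chr2:164777161-164779967, minus strand) showed the largest proportional fall of the family. It was at 3.49, 3.77 and 2.34 FPKM in siNC, against 0.238, 0.398 and 0.511 FPKM with siCNN3, with a mean of 3.20 ± 0.76 against 0.382 ± 0.137 FPKM, or 12.0% of siNC. Every siCNN3 library was under 1 FPKM and every siNC library above 2. The log2 fold change was -1.59 (95% interval -2.05 to -1.13, limma adjusted p = 0.0152). Only its siNC level brought this gene over the minimum for testing. Tnnc1 (chr14:31208312-31211729, plus strand), which slow and cardiac fibers share, was at 13.7, 20.3 and 15.9 FPKM in siNC, against 9.74, 9.58 and 5.55 FPKM with siCNN3. The groups were apart, at 16.6 ± 3.36 and 8.29 ± 2.37 FPKM, but the gene was not called (49.9% of siNC, log2 fold change -0.94, 95% interval -1.52 to -0.37, limma adjusted p = 0.114). The log2 ratio of Tnnc2 to Tnnc1 was lower in siCNN3 by 0.648 on average, with overlapping groups (exact permutation p = 0.3, adjusted 0.6). With a pseudocount of 0.1 this difference was -1.77 (adjusted exact permutation p = 0.2) and the log2 fold change of Tnnc2 was -2.79.

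**Figure D2:**
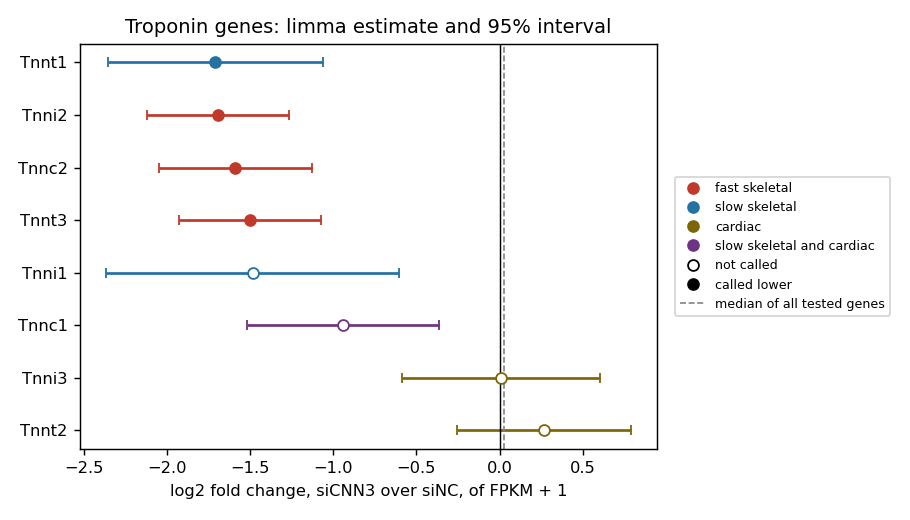
log2 fold change of FPKM + 1, siCNN3 over siNC, of each troponin gene with its 95% limma interval, colored by fiber type; filled points were called lower and the dashed line is the median of all tested genes. The 4 called genes lie between -1.71 and -1.499, and the intervals of Tnnt2 and Tnni3 include 0.

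The number of calls changed with the library left out, among the members and over all genes. Leaving out siNC replicate 3, siCNN3 replicate 1 or siCNN3 replicate 2 left 0 members called, with the lowest limma adjusted p at 0.0574, 0.0543 and 0.0553. Of all genes, 0.0345%, 0.0604% and 0.0345% were called lower in these fits, against 0.336% with all libraries. Leaving out siNC replicate 1 ended the call of Tnnc2 (0.0581), with 0.233% of all genes called lower. Without siCNN3 replicate 3 there were 5 calls, with 1.39% of all genes called lower. The log2 fold changes of Tnnt1, Tnnt3, Tnni2 and Tnnc2 stayed at or below -1.42 in all of these fits.

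**Figure D3:**
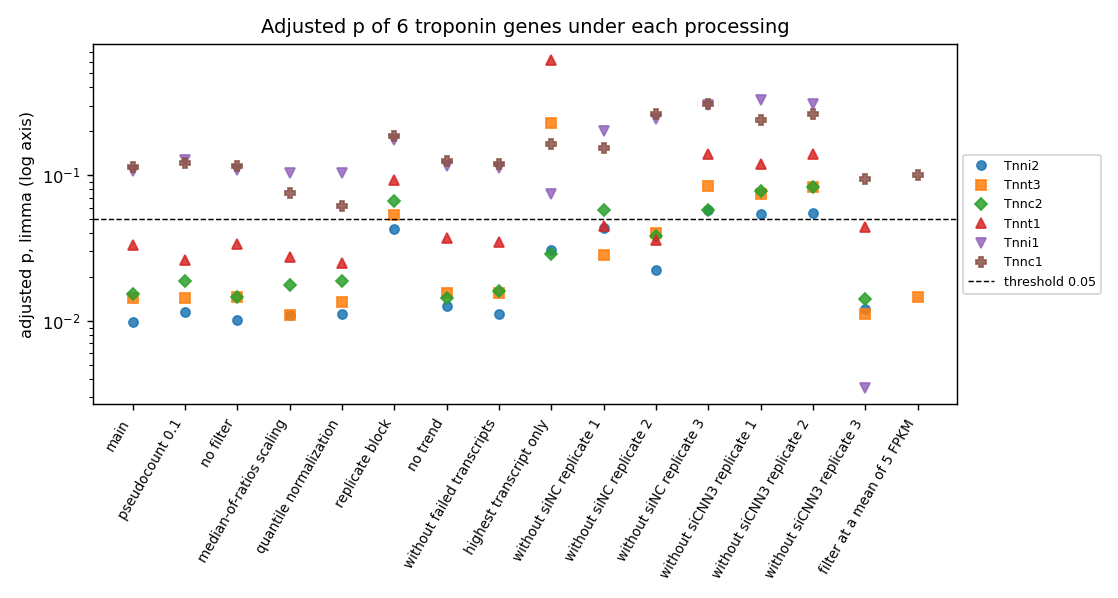
limma adjusted p (log axis) of the 6 troponin genes whose groups did not overlap, under each processing alternative on the horizontal axis; the dashed line is the threshold of 0.05. Tnni2 lies above the line in 3 fits, each of which leaves out 1 library, and Tnni1 is below it only without siCNN3 replicate 3.

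The shares of the 3 troponin T genes did not overlap between groups. Troponin T summed to 25.2 ± 3.85 FPKM in siNC and 15.6 ± 3.21 FPKM in siCNN3. Cardiac Tnnt2 was 46.0%, 31.2% and 35.4% of that sum in siNC and 79.9%, 77.6% and 65.2% in siCNN3, so it exceeded Tnnt1 and Tnnt3 together in every siCNN3 library and in 0 of 3 siNC libraries. Tnnt3 was 37.3 ± 3.9% and then 17.9 ± 6.52%, and Tnnt1 was 25.2 ± 7.30% and then 7.87 ± 1.45%, both without overlap. Troponin I summed to 13.5 ± 1.51 and 3.81 ± 1.91 FPKM. The shares of Tnni1 (50.8 ± 2.45% and 49.0 ± 18.6%) and Tnni2 (44.9 ± 5.56% and 36.3 ± 17.1%) overlapped. Tnni3 was 1.72%, 2.46% and 8.76% of troponin I in siNC and 14.01%, 16.7% and 13.3% in siCNN3, as part of a smaller sum. Troponin C summed to 19.8 ± 3.71 and 8.67 ± 2.26 FPKM, and Tnnc2 was 16.3 ± 3.75% and then 4.93 ± 3.13% of it, without overlap. The log2 ratio of Tnnc2 to Tnnc1 above, whose groups overlapped, adds 1 to each FPKM, and the share does not.

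**Figure D4:**
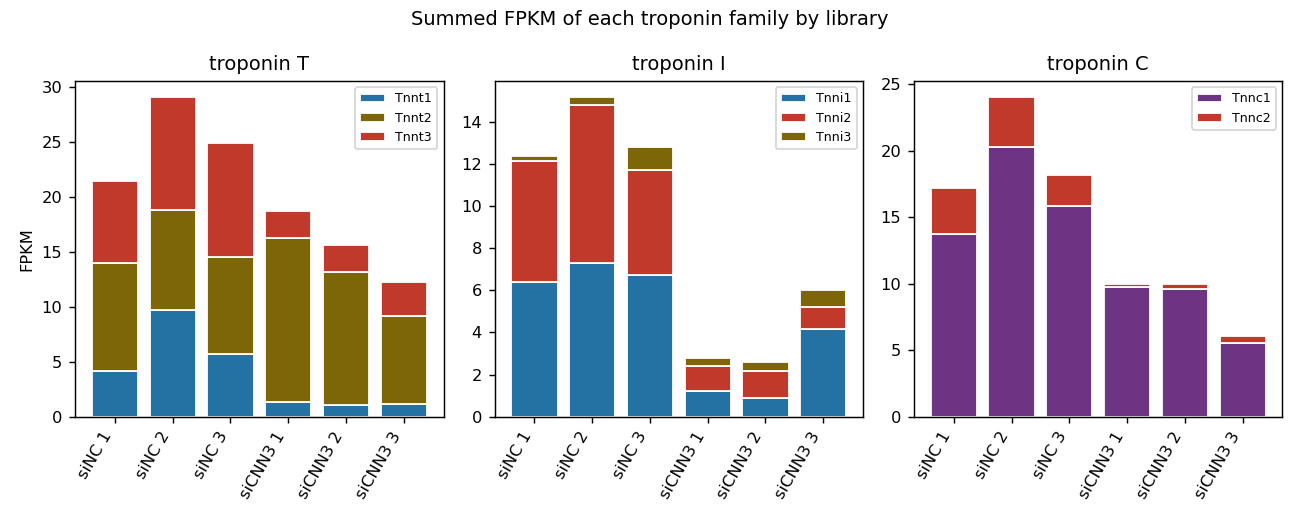
Summed FPKM of troponin T, troponin I and troponin C in each library, stacked by gene, with fast genes in red, slow in blue, cardiac in brown and Tnnc1, which slow and cardiac fibers share, in purple. Tnnt2 makes up 65.2% to 79.9% of troponin T in siCNN3, and siCNN3 replicate 3 stands out by its Tnni1.

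By fiber type, the 3 fast genes together were at 16.7, 21.6 and 17.7 FPKM in siNC, against 3.84, 4.13 and 4.65 FPKM with siCNN3. The 2 slow genes were at 10.6, 17.0 and 12.4 FPKM and then at 2.57, 1.96 and 5.35 FPKM. Neither pair of groups overlapped. The 2 cardiac genes were at 10.1, 9.47 and 9.97 FPKM and then at 15.3, 12.6 and 8.80 FPKM, which overlapped. Of all troponin FPKM, the fast genes made up 31.98 ± 0.59% in siNC and 15.3 ± 3.50% in siCNN3 and the cardiac genes 17.1 ± 3.01% and 43.1 ± 6.40%. The slow share was 22.6 ± 2.11% and 12.4 ± 8.36% with overlap, and siCNN3 replicate 3, at 22.0%, was inside the siNC range. All 8 genes summed to 58.5 ± 8.94 and 28.0 ± 3.56 FPKM. In bulk RNA, fewer myotubes in a culture and less troponin mRNA per myotube cannot be told apart.

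The order of levels within a group followed from these values. In siNC, Tnnc1 was the highest and was above Tnnt3 in all 3 libraries. Tnnt3 and Tnnt2 did not differ beyond their spread, nor did Tnni1, Tnnt1 and Tnni2, and Tnnc2 and then Tnni3 came below with no overlap. In siCNN3, Tnnt2 was the highest and exceeded Tnnc1 in each of the 3 libraries, although their ranges overlapped. Tnnt3, Tnni1, Tnnt1 and Tnni2 followed, the ranges of Tnni1 overlapping those of its neighbors Tnnt3 and Tnnt1, and that of Tnnt1 overlapping Tnni2. Tnnc2, at 0.382 FPKM, was below Tnni3, at 0.541 FPKM, in all 3 libraries, whereas it was above Tnni3 in all 3 siNC libraries.

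Troponin T genes are spliced into many forms near the 5′ end of the coding sequence, and the table lists 7 transcripts of Tnnt1, 6 of Tnnt2 and 10 of Tnnt3. Tnnt2-201, Tnnt2-202 and Tnnt2-206 share 97.9% or more of their bases, and the stretches in which they part are shown because FPKM moved between them from library to library. All are coding sequence on chromosome 1 of GRCm38, read from the GENCODE transcripts, with the bases that are not in the transcript compared in capitals. Tnnt2-201 is compared with Tnnt2-202, and the others with Tnnt2-201.
Tnnt2-201: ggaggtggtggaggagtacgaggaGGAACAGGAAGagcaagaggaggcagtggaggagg
Tnnt2-202: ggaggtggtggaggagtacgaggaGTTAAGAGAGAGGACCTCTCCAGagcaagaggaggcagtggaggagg
Tnnt2-206: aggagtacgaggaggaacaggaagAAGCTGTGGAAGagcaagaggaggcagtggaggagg
Tnnt2-201 uses an exon of 11 bases (chr1:135841901-135841911) that Tnnt2-202 lacks. Tnnt2-202 has in its place an exon of 13 bases (chr1:135845507-135845519) and 10 bases more at the start of the next exon (chr1:135845545-135845554). Tnnt2-206 adds an exon of 12 bases (chr1:135842015-135842026) to those of Tnnt2-201.

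Tnnt2-201 was at 5.24, 3.04 and 6.34 FPKM in siNC, and siCNN3 replicates 2 and 3 had 4.51 and 2.68 FPKM, but it was listed at 0 in siCNN3 replicate 1. There Tnnt2-202 was at 13.8 FPKM, 92.6% of the gene, whereas it was between 0.00333 and 0.513 FPKM in the other 5 libraries. Tnnt2-206 was listed at 0 in siNC replicate 3 and siCNN3 replicate 1, and at 1.87 to 3.78 FPKM elsewhere. Tnnt2-205 was at 1.33 FPKM in siNC replicate 1, at 3.35 FPKM in siCNN3 replicate 2 and at 0 in the other 4 libraries, and Tnnt2-209 was listed at 0 in the 2 libraries that held Tnnt2-205. The sum over the gene stayed between 8.01 and 14.9 FPKM. With Tnnt2-201 alone, the transcript with the highest mean, standing for the gene, the log2 fold change of Tnnt2 turned from 0.27 to -1.06 (limma adjusted p = 0.516). An exact 0 in FPKM can be a failed estimate, so the forms are described by library and no direction is given for them.

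**Figure D5:**
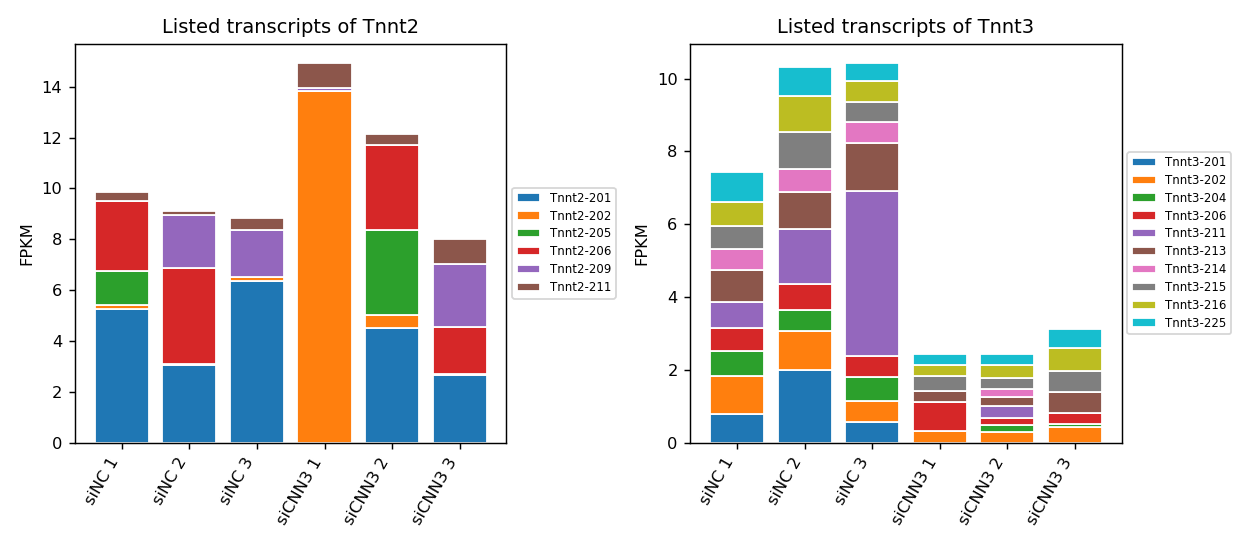
FPKM of each listed transcript of Tnnt2 (left) and Tnnt3 (right) in each library, stacked. In siCNN3 replicate 1 Tnnt2-202 holds 92.6% of Tnnt2, whereas Tnnt3 is spread over many transcripts in all libraries.

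All 8 tested transcripts of Tnnt3 averaged under 0.5 FPKM in siCNN3 and passed the minimum for testing only through siNC. That minimum favored transcripts lower in siCNN3, so nothing is read from the count of 5 among them with every siCNN3 value below every siNC value, beside 7.54% of all transcripts tested. Tnnt3-211 reached the highest share of them, 43.5% of the gene in siNC replicate 3, where it was at 4.54 FPKM, and was at 0.732 and 1.498 FPKM in the other siNC libraries, against 0, 0.335 and 0 FPKM with siCNN3. Tnnt3-213 was at 0.877, 1.014 and 1.33 FPKM in siNC, against 0.305, 0.249 and 0.576 FPKM with siCNN3, so its groups were apart. Tnnt3-206 was highest in siCNN3 replicate 1, at 0.811 FPKM, against 0.577 to 0.732 FPKM in siNC.

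Of the 7 transcripts of Tnnt1, 4 were listed at 0 in at least 1 library. Tnnt1-210 was never at 0 and made up 11.4% to 46.0% of the gene, at 1.24, 1.93 and 0.649 FPKM in siNC, against 0.206, 0.312 and 0.539 FPKM with siCNN3, with the groups apart, and it too passed the minimum only through siNC. Tnnt1-201 and Tnnt1-204 were also above 0 in every library. Tnnt1-206 was listed at 0 in siNC replicate 1 and at 1.52 and 3.13 FPKM in the other siNC libraries. Tnnt1-208 was at 2.96 FPKM in siNC replicate 2 alone, at 0.16 FPKM in siNC replicate 1 and at 0 in the other 4 libraries. It made up 30.5% of Tnnt1 in siNC replicate 2, the library with the highest sum of that gene. Of the 2 transcripts of Tnni1, Tnni1-207 was at 4.29, 4.82 and 4.54 FPKM in siNC, against 0.825, 0.391 and 1.76 FPKM with siCNN3. Tnni1-201 was at 2.12, 2.46 and 2.20 FPKM in siNC, against 0.40, 0.487 and 2.42 FPKM with siCNN3. The higher Tnni1 of siCNN3 replicate 3 was thus shared by both transcripts, and for Tnni1-201 it reached the siNC level. Tnni2-201, the main fast troponin I transcript, was at 3.64, 2.96 and 3.02 FPKM in siNC, against 0.818, 0.887 and 0.677 FPKM with siCNN3, without overlap. Tnni2-206 was at 1.14, 1.54 and 1.41 FPKM in siNC, against 0.358, 0.413 and 0.352 FPKM with siCNN3, also without overlap but over the minimum only through siNC, while Tnni2-207 was at 2.73 FPKM in siNC replicate 2 and at 0 in all other libraries.

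Tested one by one, 24 of the 32 transcripts had enough signal and 0 were called by limma, with a lowest adjusted p of 0.0581 (Tnnc2-201, the one listed transcript of its gene). Over all 21658 transcripts tested, 0.0785% were called lower (17). In all, 14 of the 32 troponin transcripts were listed at 0 in at least 1 library.

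Troponin I and troponin T genes lie side by side in the mouse genome, as 3 pairs. Tnni3 and Tnnt1 are 1922 bases apart on chromosome 7, Tnni1 and Tnnt2 are 25364 bases apart on chromosome 1, and Tnni2 and Tnnt3 are 54425 bases apart on chromosome 7. Tnnt1 was called lower and its neighbor Tnni3 was not, its groups overlapping. Neither Tnni1 nor Tnnt2 was called, and Tnni1 was lower in every siCNN3 library whereas the groups of Tnnt2 overlapped. The differences between neighbors were not tested. In the fast pair both Tnni2 and Tnnt3 were called lower, and Lsp1, the one listed gene between them, was at 50.8 ± 12.7 FPKM in siNC, against 63.3 ± 13.2 FPKM with siCNN3 (log2 fold change 0.32, limma adjusted p = 0.558). Of the 11 tested genes that flank the members, Lsp1 included, 0 were called, where 0.336% of all genes were called lower and 1.73% higher. Nt5dc2 beside Tnnc1, at 56.7% of its siNC mean (limma adjusted p = 0.0734), and Dnaaf3 beside Tnni3, at 51.4% (0.235), were lower in every siCNN3 library. Mrpl23, at 112.2%, and Phlda3, at 119.7%, were higher in every siCNN3 library. Ppp1r12c, Pkp1, Ctsd, Phf7, Snx21, Ube2c and Lsp1 had overlapping groups and lay between 76.4% and 124.6% of siNC. Tnnc2 overlaps Ube2c on the opposite strand by 1662 bases, and Tnni3 overlaps Dnaaf3 on the same strand by 1297 bases. Whether counting used the strand is not given in the sources used here, so reads of Tnnc2 and Ube2c may have been split between the genes. For Tnni3 and Dnaaf3, on the same strand, such a setting could not separate reads in the overlap. Ube2c was at 52.5, 127.7 and 79.2 FPKM in siNC, against 75.6, 73.8 and 48.8 FPKM with siCNN3, with overlap, at a level far above Tnnc2.

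Promoter sequence from RefSeq (GRCm38.p6) was at hand for 6 of the 8 genes, from 250 bases before a transcript start to 50 after it. One window is shown for each of Tnnt1 and Tnnc2, called lower, and for Tnni1 and Tnnt2, which lie side by side. Capitals mark matches on either strand to motifs known from muscle promoters: the E-boxes CAGCTG and CACCTG, which myogenic bHLH factors can bind, the MCAT motif CATTCC of TEAD factors and the CACC box CCACCC.
Tnnt1 (chr7:4515926-4516225, minus strand): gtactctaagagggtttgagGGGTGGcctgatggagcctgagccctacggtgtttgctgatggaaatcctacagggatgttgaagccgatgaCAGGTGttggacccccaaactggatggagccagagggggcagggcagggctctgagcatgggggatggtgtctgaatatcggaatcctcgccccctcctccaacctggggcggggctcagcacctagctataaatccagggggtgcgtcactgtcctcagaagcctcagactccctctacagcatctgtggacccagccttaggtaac
Tnnc2 (chr2:164779685-164779984, minus strand): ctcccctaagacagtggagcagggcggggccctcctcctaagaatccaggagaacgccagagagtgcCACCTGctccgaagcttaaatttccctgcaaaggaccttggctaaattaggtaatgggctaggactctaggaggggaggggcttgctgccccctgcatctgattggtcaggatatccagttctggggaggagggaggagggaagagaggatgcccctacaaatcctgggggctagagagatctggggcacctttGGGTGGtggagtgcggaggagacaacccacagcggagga
Tnni1 (chr1:135799171-135799470, plus strand): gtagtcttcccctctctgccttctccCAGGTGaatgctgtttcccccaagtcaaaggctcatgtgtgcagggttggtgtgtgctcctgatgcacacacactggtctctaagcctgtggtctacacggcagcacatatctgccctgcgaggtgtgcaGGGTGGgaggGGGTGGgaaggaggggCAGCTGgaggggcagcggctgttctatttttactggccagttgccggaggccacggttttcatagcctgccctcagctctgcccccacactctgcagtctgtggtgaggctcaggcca
Tnnt2 (chr1:135836084-135836383, plus strand): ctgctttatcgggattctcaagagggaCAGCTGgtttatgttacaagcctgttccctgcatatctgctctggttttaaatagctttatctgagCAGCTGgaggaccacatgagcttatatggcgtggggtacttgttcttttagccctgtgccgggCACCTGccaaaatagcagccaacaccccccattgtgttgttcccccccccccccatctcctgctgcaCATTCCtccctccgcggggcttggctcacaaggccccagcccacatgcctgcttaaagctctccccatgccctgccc
CACCTG occurred in a window of Tnnt1, Tnnc2, Tnni1 and Tnnt2 and in 20.2% of 32851 RefSeq promoters. CAGCTG occurred in those of Tnni1 and Tnnt2 and in 16.3% of all promoters, CATTCC in those of Tnnc1 and Tnnt2 and in 14.7%, and CCACCC in those of Tnnc1, Tnnc2, Tnni1 and Tnnt1 and in 31.5%. The MEF2 site and the CArG box of SRF, in 1.86% and 1.63% of all promoters, had 0 matches in the members' windows. The window of Tnni3 held none of these motifs, and no matches overlapped in the 4 windows shown. E-boxes were thus present in genes that were called lower and in Tnnt2, which was not, and these matches are descriptions of letters only.

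The genes whose pattern over the 6 libraries was most like that of a called member were named by Pearson's r of log2(FPKM + 1), as a description over libraries that share the same 2 groups. For Tnni2 they were Cntf (r = 0.993), Mylpf (0.988) and Ogdh (0.987). Mylpf, the fast skeletal regulatory myosin light chain, also matched Tnni2 in the size of the difference. The root mean square difference of their log2 profiles, each taken relative to its siNC mean, was 0.199, against 0.594 for Cntf and 0.927 for Ogdh. For Tnnt3 they were Adam19 (r = 0.997), Hsd11b1 (0.996) and Col4a6 (0.995), for Tnnt1 Phlpp1 (0.996), Prkar1a (0.994) and Slc12a2 (0.994), and for Tnnc2 mt-Co1 (0.994), Atp13a3 (0.991) and Dennd2a (0.987). Hsd11b1, which converts cortisone-type steroids to their active form, was at 37.9% of siNC, with a root mean square difference of 0.272 from Tnnt3. At the other end, Phlpp1 was at 82.1% and mt-Co1 at 76.8% of siNC, compared with 18.4% for Tnnt1 and 12.0% for Tnnc2, so a high r did not mean a like size of difference.

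Among the other proteins of the thin filament, 16 of the 25 genes of the list were tested. Acta1, skeletal alpha-actin, was the 1 gene called lower and 0 were called higher, against 0.336% and 1.73% of all genes. The count was 2 with median-of-ratios scaling or without siNC replicate 1, and 3 with quantile normalization or without siCNN3 replicate 3. Of all genes, 0.544%, 0.233%, 0.802% and 1.39% were called lower in these fits. At an unadjusted p under 0.05, 8 of 16 were lower and 1 was higher, against 6.14% and 9.94% of all genes. Of the lower genes, Klhl40, Klhl41 and Lmod1 passed the minimum for testing only through their siNC level, which adds to that count. Acta1 was at 24.6, 33.8 and 26.9 FPKM in siNC, against 5.37, 5.35 and 6.43 FPKM with siCNN3 (20.1% of siNC, log2 fold change -2.12, limma adjusted p = 0.00473), with no overlap. The median over the 16 was -0.33. The thick filament had 10 of 26 genes tested, of which 4 were called lower and 0 higher: Mylpf, Myh3, Myl4 and Myl1 (the last at a limma adjusted p of 0.0494). This count was 0 without siNC replicate 3 or siCNN3 replicate 2, 1 without siCNN3 replicate 1, and 2 without siNC replicate 1 or siNC replicate 2. Of all genes, 0.0345% to 0.233% were called lower in these fits. Mylpf was at 22.8, 36.5 and 25.4 FPKM and then at 5.88, 7.36 and 7.16 FPKM (24.1% of siNC, log2 fold change -1.88, limma adjusted p = 0.0099). Myh3, embryonic myosin heavy chain, was at 2.41 ± 0.56 and 0.302 ± 0.131 FPKM (12.5% of siNC, limma adjusted p = 0.0193), and only its siNC level brought it over the minimum for testing. Myl4, the embryonic and atrial essential light chain, was at 6.55 ± 1.43 and 2.11 ± 0.41 FPKM (32.2%, limma adjusted p = 0.0304). The groups of these 3 myosin genes did not overlap, and the median over the 10 genes was -0.71.

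Of the genes that supply or clear the calcium that troponin C senses, limma called 0 of 22 tested in either direction, where 0.336% of all genes were called lower and 1.73% higher. At an unadjusted p under 0.05, 4 of them were lower and 0 higher, with a median log2 fold change of -0.18. Of the lower genes, Atp2a1 and Hrc passed the minimum for testing only through their siNC level, which adds to that count. Of the transcription factors and cofactors known to act on troponin genes, 25 were tested and limma called 0 in either direction, with 3 lower and 1 higher at an unadjusted p under 0.05 and a median of -0.13. In 7 of the 25 every siCNN3 value lay below every siNC value and in 1 above, against 1084 and 1595 of 11593 genes. The unadjusted shares over all genes were 6.14% lower and 9.94% higher. None of these medians says that a list stands apart from other genes.

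Markers of other cell types were read on the same samples. Of the 14 myotube markers 11 were tested and 4 were called lower, Acta1, Mylpf, Tnnc2 and Myh3, against 0.336% of all genes. Acta1, Mylpf and Myh3 are the same genes that were counted in the filament lists. Tnnc2 is itself a member, and Tnnc2 and Myh3 passed the minimum for testing only through siNC. Their summed level was 184.8 to 221.2 FPKM in siNC and 118.7 to 132.0 FPKM in siCNN3, so these markers were present in both groups, at a lower sum in siCNN3. The largest part of the sum was Des, desmin, at 113.0 to 125.1 FPKM in siNC and 84.3 to 103.2 FPKM in siCNN3, 78.0% of siNC. The other 10 tested markers ranged from 12.0% (Tnnc2) to 90.7% (Cdh15) of siNC. The fusion genes Mymx and Mymk were at 18.9% and 21.2% and Myog at 33.2%, none of them called, and the median log2 fold change of the 11 was -0.86. Mymx and Mymk too passed the minimum for testing only through siNC, and the median is the value of Mymx. Ckm, muscle creatine kinase, was below the minimum for testing, and Actc1 and Cav3 were not analysed here. Fibroblast markers (6 of 9 tested) summed to 786.8 to 1110 and 434.3 to 580.8 FPKM and smooth muscle markers (6 of 8 tested) to 444.5 to 617.8 and 316.0 to 377.1 FPKM, and 0 of either list were called, where 0.336% of all genes were called lower and 1.73% higher. Of the blood cell markers 5 of 8 were tested and 2 were called lower against the same 0.336%, the globins Hbb-bs and Hbb-bt, with sums of 229.9 to 656.8 FPKM in siNC, siNC replicate 2 being the highest, and 53.5 to 75.1 FPKM in siCNN3. Among siNC libraries, Tnnt1, Tnni1, Tnni2, Tnnc1 and Tnnc2, 5 of the 6 members that were lower in every siCNN3 library, were also highest in siNC replicate 2. So were Acta1, Mylpf, Myh3, Myl4 and Myl1, the called genes of the filament lists. The share of all genes that were highest there was not counted, so nothing is read from this. The part of other cell types in the troponin values was not tested.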

How the data were processed

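RNA of 3 siNC and 3 siCNN3 C2C12 libraries was measured by mRNA-seq. The authors deposited FPKM for 24023 Ensembl transcripts. The submitters' processing notes name Bowtie 0.12.2 and the builds mm8 and mm10, and the quantifier, annotation and strand setting are not given in the sources used here. FPKM hold no read numbers, so the depth is unknown and no counting error or floor is given; the libraries sum to between 322621 and 355591 FPKM. Columns were matched to samples by title. Identifiers were matched without version to GENCODE vM21 (GRCm38), which named 23949. The other 74, at most 0.22% of a library's FPKM, were left out.

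FPKM were summed per gene, genes with a mean under 0.5 FPKM were dropped, and log2(FPKM + 1) was fitted with limma 3.58.1 (R 4.3.3, trend, Benjamini-Hochberg over 11593 genes). Ratios within a library were tested with exact permutation tests. The fit was also run on simulated data as a self-test, from which nothing is read here. Genes were named by rule: all 8 members, up to 3 called genes per list by size of change, the 3 most correlated genes of each called member and the tested neighbors. Myl1, and Myh3 as a myotube marker, were added after their values were seen. So were the uncalled genes Des, Cdh15, Mymx, Mymk, Myog, Ckm, Klhl40, Klhl41, Lmod1, Atp2a1 and Hrc. Transcripts could be named only where they reached 10% of their gene in a library, and those described were chosen among them after their values were seen. The members and lists were chosen with earlier results of these data known. Alternatives covered the pseudocount, filter, scaling, trend, transcripts, replicate block and each library left out.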

Additional observations from a re-analysis of the deposited data

How the results depend on the processing

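The count of troponin genes called lower, 4, was kept with a pseudocount of 0.1, no filter, median-of-ratios scaling, quantile normalization, no trend, and without failed transcripts. It was 1 with a minimum of 5 FPKM, where 3 members were tested, 2 with the highest transcript only, and 0 with each transcript tested on its own, a choice made after seeing the data. Leaving out 1 library gave 0 to 5, while 0.0345% to 1.39% of all genes were called lower. The smaller tables and transcript fits test other values or fewer genes, and otherwise the cause was not tested. With the replicate block it was 1 (Tnni2), and the count over all genes went from 39 lower and 200 higher to 6 and 62. The numbers share no stated origin, and same-numbered libraries deviated with correlations of -0.278, 0.314 and -0.025, so they were not taken as pairs.

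The thin filament count, 1, was 2 with median-of-ratios scaling, 3 with quantile normalization and 1 to 3 without 1 library. The thick filament count, 4, was 3 with no filter or without failed transcripts, 2 with a minimum of 5 FPKM, 1 with the replicate block, 2 with the highest transcript only and 0 to 3 without 1 library. The calcium count, 0, was 1 with quantile normalization. Over all genes the calls ranged from 4 lower and 16 higher (without siNC replicate 3) to 161 and 444 (without siCNN3 replicate 3).

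With the highest transcript only, Tnnt1 (-0.66) and Tnnt3 (-1.39) lost their calls, the log2 fold change of Tnnt2 was -1.06, the log2 ratio of Tnnt3 to Tnnt1 was -0.73, that of Tnni2 to Tnni1 was 0.31 and that of Tnnt3 to Tnnt2 was -0.33. With a pseudocount of 0.1 the ratio of Tnnc2 to Tnnc1 was -1.77 and that of Tnnt3 to Tnnt1 was 0.49. Tnni3 was at -0.083 with quantile normalization and -0.16 to 0.25 without 1 library. Without 1 library the ratio of Tnnt3 to Tnnt1 lay between -0.011 and 0.34 and that of Tnni2 to Tnni1 between -0.54 and 0.29. No troponin gene was called higher in any fit. Depth was unknown, and with 3 libraries a group no exact test could go below 0.1.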
